A study of Rattus norvegicus with 4 samples.

Results

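Epithelial lineage transcription factors were followed across 4 rat mammary gland arrays, with the members taken as all probe sets annotated to 1 of 10 genes and to no other gene. The genes were Gata3, Foxa1, Foxq1, Elf3, Ehf, Id1, Id2, Id3, Sox4 and Sox9. They were represented by 18 of the 31099 probe sets, belonging to 9 of the 10 genes, and Sox9 was not analysed here because no probe set carried its symbol alone. The arrays came from HHR, the Hirosaki hairless rat, a mutant strain without a coat, as homozygous animals on day 1 of lactation and as heterozygous animals on day 1 of lactation, from Sprague-Dawley rats (SDR) on day 1 of involution, and from SDR on day 1 of lactation. Involution is the return of the gland to a resting state once suckling ends. The labels name mammary gland for every array and give neither the mutated gene, the age of the rats, the number of animals behind an array nor the length of lactation before involution. Each group had 1 array, so differences could be neither tested nor given an error, and only their size is described.

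The mammary epithelium has a luminal layer, which makes milk, and a basal myoepithelial layer, which contracts to eject it. GATA3 is a zinc finger factor that keeps luminal cells differentiated, and FOXA1 is a forkhead factor that opens chromatin for the oestrogen receptor. ELF3 and EHF are ETS factors found mainly in epithelia, whereas SOX4 and SOX9 are HMG box factors, SOX4 known as a target of TGF-beta and SOX9 as a factor of luminal progenitors. FOXQ1 is another forkhead factor, whose loss in mice gives the satin coat. The ID proteins have a helix-loop-helix domain but no DNA-binding region, and they hold E proteins away from DNA. In mice, loss of Id2 impairs the growth of milk-producing alveoli in pregnancy.

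The promoters of the 3 Id genes, which were all highest in SDR lactation, and of Foxq1, the member with the widest range over the arrays, are shown as the 250 bases before the start site, 5′ to 3′ on the gene's strand, from RefSeq on build GRCr8. Capitals mark 3 promoter motifs, searched on both strands. The first is TATAAA, the box of focused start sites. The second is CCAAT, bound by NF-Y. The third is GGGCGG, bound by SP1. A promoter entry was found for 6 of the 10 genes. The Id1 window is chr3:161671314-161671563 on the plus strand, the Id2 window chr6:47470996-47471245 on the minus strand, the Id3 window chr5:153656041-153656290 on the plus strand and the Foxq1 window chr17:33124088-33124337 on the minus strand.
Id1: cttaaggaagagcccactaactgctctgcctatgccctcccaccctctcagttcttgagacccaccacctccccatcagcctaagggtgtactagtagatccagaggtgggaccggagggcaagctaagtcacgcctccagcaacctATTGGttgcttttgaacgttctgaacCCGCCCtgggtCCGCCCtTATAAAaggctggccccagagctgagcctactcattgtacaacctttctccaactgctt
Id2: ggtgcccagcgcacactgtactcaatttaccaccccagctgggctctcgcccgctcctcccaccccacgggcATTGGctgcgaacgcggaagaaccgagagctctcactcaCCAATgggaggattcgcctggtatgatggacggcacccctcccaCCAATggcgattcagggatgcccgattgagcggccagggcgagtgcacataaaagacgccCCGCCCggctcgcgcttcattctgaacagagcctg
Id3: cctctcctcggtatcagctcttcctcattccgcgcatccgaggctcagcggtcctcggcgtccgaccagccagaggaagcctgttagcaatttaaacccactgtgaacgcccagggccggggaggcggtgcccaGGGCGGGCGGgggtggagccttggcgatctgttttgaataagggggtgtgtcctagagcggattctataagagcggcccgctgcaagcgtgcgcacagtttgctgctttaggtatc
Foxq1: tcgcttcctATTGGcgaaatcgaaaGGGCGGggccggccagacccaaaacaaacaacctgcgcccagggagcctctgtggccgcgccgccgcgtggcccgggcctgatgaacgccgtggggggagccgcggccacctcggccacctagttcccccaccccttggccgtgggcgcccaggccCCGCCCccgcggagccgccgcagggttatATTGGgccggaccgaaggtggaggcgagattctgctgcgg
All 4 windows held GGGCGG, a motif found in 30.5% of the 33469 promoter windows of the same length. Id1 and Id3 each held 2 matches, those of Id3 overlapping each other by 2 bases, Foxq1 held 2 and Id2 held 1. CCAAT, present in 34.0% of all windows, matched 3 times in Id2, 2 times in Foxq1, 1 time in Id1 and not at all in Id3. TATAAA, present in 12.9% of windows, matched in Id1 only among these 4, with its first base 59 bases before the start site.

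Values are MAS5 signals, the intensity of a probe set on a linear scale, and signals under 91.7, the 40th percentile of all values, were raised to this floor before differences were taken. A gene was described by its brightest probe set, and folds computed against the floor are lower bounds. Between 10362 and 10467 genes lay above the floor in an array. For Gapdh, the 3′ control probe set divided by the 5′ one, a measure of RNA degradation, gave 2.30 in homozygous HHR, 1.93 in heterozygous HHR, 1.60 in SDR involution and 1.17 in SDR lactation. The actin ratio was 5.91, 7.86, 4.80 and 4.60 in the same order of arrays. Both ratios were lowest in SDR lactation, the array that enters 3 of the 4 comparisons, and their part in the differences from it was not tested. Of the 17 luminal markers with a probe set all 17 were above the floor in at least 1 array, as were 12 of 13 myoepithelial markers.

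The members did not move as 1 group. Foxq1 and Sox4 were high in the homozygous HHR and involution arrays, the 3 Id genes were highest in SDR lactation, Gata3 was lowest in involution, and Elf3 and Ehf stayed within 2-fold over all 4 arrays. Foxa1 had signals of 21.9 in homozygous HHR, 8.7 in heterozygous HHR, 4.3 in SDR involution and 7.3 in SDR lactation. All lay under the floor, so Foxa1 was not measured, and 8 members entered the comparisons.

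**Figure D1:**
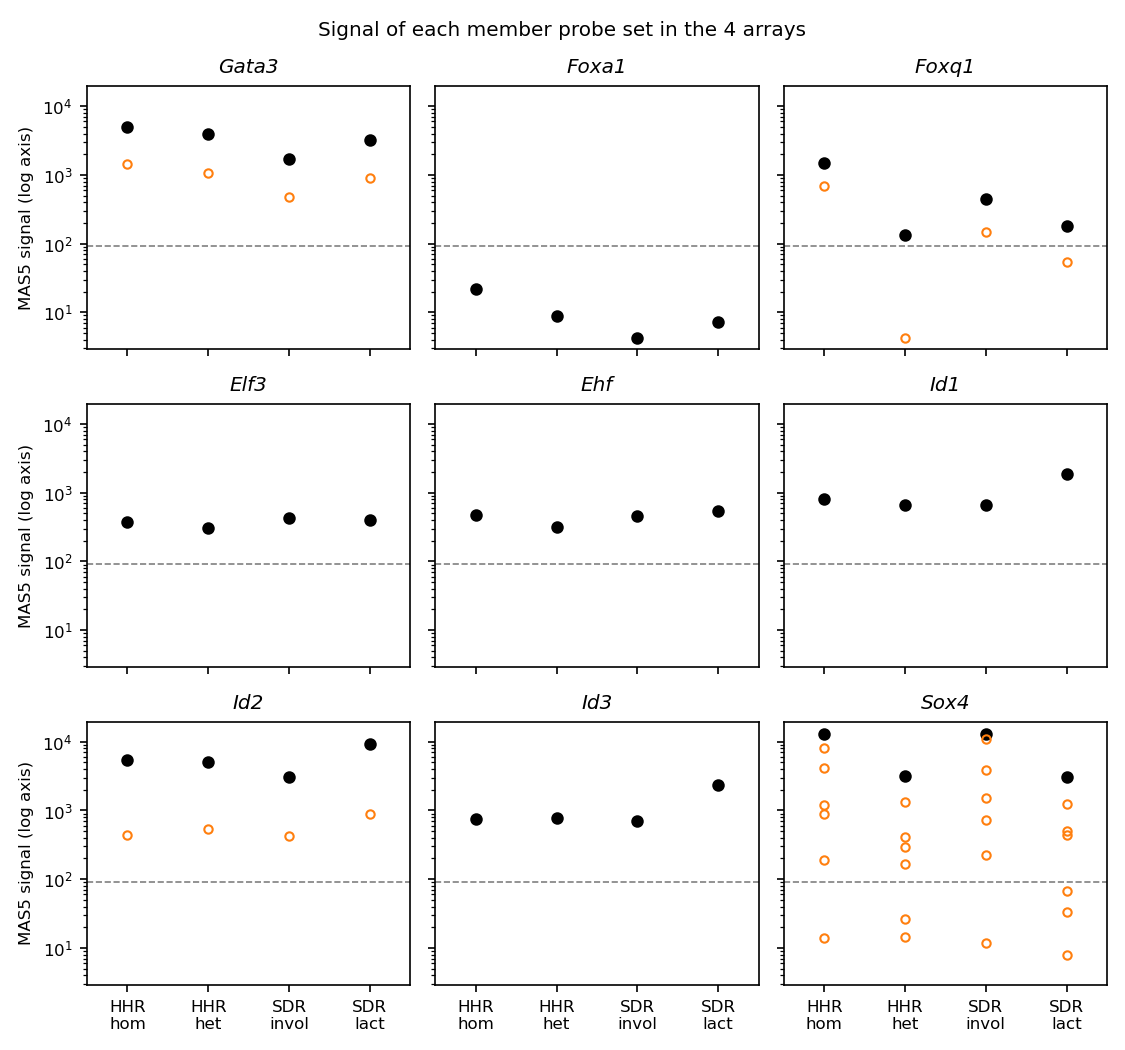
MAS5 signal (log axis) of the 18 probe sets of 9 genes in homozygous HHR lactation (HHR hom), heterozygous HHR lactation (HHR het), SDR involution (SDR invol) and SDR lactation (SDR lact). Black points are the brightest probe set of a gene, orange circles its other probe sets and the dashed line the floor of 91.7, below which all Foxa1 points lie. Foxq1 and Sox4 are high in HHR hom and SDR invol, and Id1 and Id3 in SDR lact.

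In homozygous HHR against SDR lactation, 2 of 8 measured members were at least 2-fold higher (Foxq1 and Sox4) and 2 at least 2-fold lower (Id1 and Id3). Over all genes 6.49% of 10862 passed 2-fold, 3.77% higher and 2.72% lower. The members and the further lists were chosen with earlier results of these data known, so their counts beside all genes are descriptions only. The median log2 difference of the members was -0.13, beside 0.02 over all genes. In heterozygous HHR against SDR lactation 0 of 8 members were higher and 2 lower, again Id1 and Id3, where 8.72% of 10872 genes passed, 4.58% higher and 4.14% lower. The median was -0.62 for the members and 0.01 for all genes. These comparisons share the SDR lactation array, so the low Id values in each rest on the same high values.

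In homozygous against heterozygous HHR, 2 of 8 members were at least 2-fold higher, Foxq1 and Sox4, and none lower, where 6.89% of 10870 genes passed, 3.76% higher and 3.13% lower. The median was 0.30 for the members and 0.00 for all genes. In SDR involution against SDR lactation 2 members were higher, Foxq1 and Sox4, and 3 were lower, Id1, Id2 and Id3, where 19.2% of 11006 genes passed, 10.3% higher and 8.94% lower. The median was -0.57 for the members and 0.08 for all genes. Scaling moved this last background: 1129 genes were higher and 984 lower as deposited, but 856 higher and 1232 lower after each array was centred on its median, when the median of all genes was -0.06. Relative to the deposited median the members' log2 differences in involution ran from -1.81 for Id3 to 2.03 for Sox4.

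**Figure D2:**
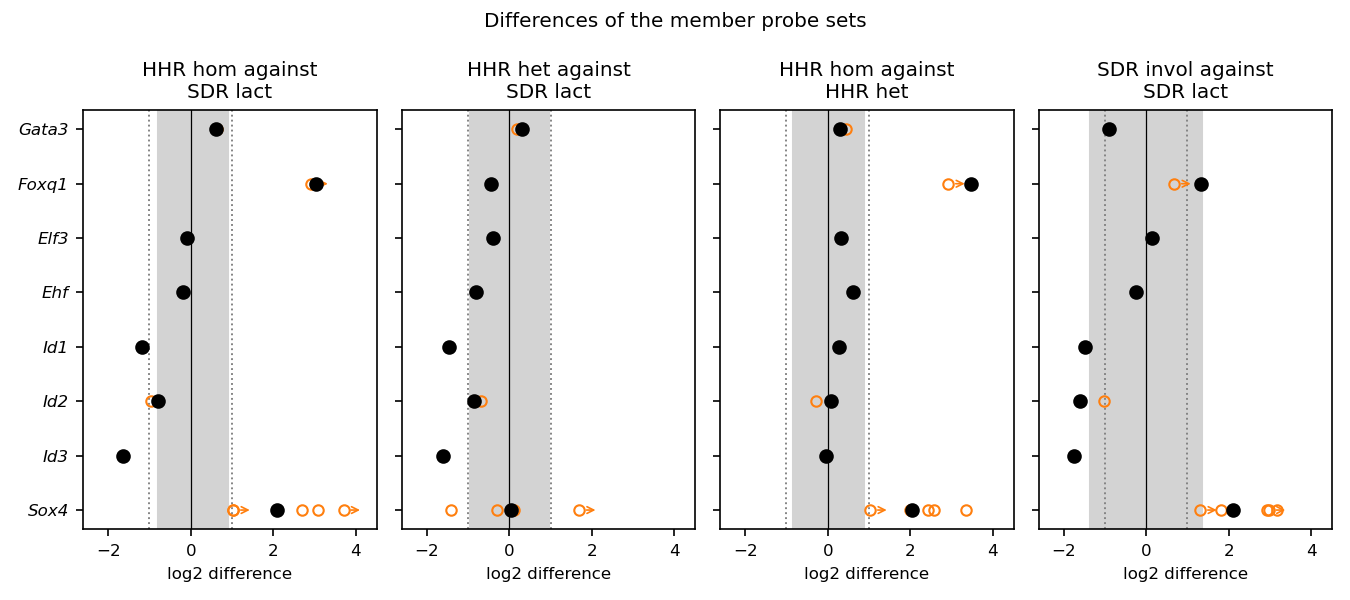
log2 differences of the member probe sets, each shown where 1 or both arrays of a pair exceeded the floor. Black points are the brightest probe set of a gene, orange circles the others, arrows mark lower bounds, dotted lines mark 2-fold and the grey band holds all genes from the 5th to the 95th percentile. Foxq1 and Sox4 lie right of the band in both comparisons of HHR hom, and Id1 and Id3 left of it in all 3 comparisons with SDR lact.

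Sox4 had 7 probe sets, more than any other member. The brightest had a signal of 13031 in homozygous HHR, 3140 in heterozygous HHR, 13198 in SDR involution and 3062 in SDR lactation. The homozygous HHR and involution signals lay close together, as did those of heterozygous HHR and SDR lactation. Sox4 was 4.26-fold higher in homozygous HHR than in SDR lactation, 4.15-fold higher than in heterozygous HHR, and 4.31-fold higher in involution than in SDR lactation. Heterozygous HHR and SDR lactation differed by 1.03-fold.

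The other 5 Sox4 probe sets above the floor in any array were likewise higher in homozygous HHR and involution than in the remaining pair, but differed in the size of the step. The next in brightness had 8074 in homozygous HHR, 1346 in heterozygous HHR, 11120 in SDR involution and 1238 in SDR lactation. A further one had 4218, 412, 3829 and 503 in these arrays in turn. Of the 6 probe sets above the floor in homozygous HHR or SDR lactation all 6 were at least 2-fold higher in homozygous HHR, between 2.03-fold and at least 13-fold. Among all probe sets 4.28% were that much higher in this pair. In homozygous against heterozygous HHR the same number, 6 of 6, passed, from at least 2.05-fold to 10.3-fold, against 3.47% of all probe sets. In involution against SDR lactation 6 of 6 passed as well, from at least 2.48-fold to 8.98-fold, against 11.4% of all probe sets.

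Heterozygous HHR against SDR lactation gave no settled direction for Sox4. Of 5 probe sets above the floor in the pair 1 was at least 3.24-fold higher (297 against a value under the floor), 1 was 2.65-fold lower (166 against 440), and 3 lay within 2-fold, where 5.35% of all probe sets were that much higher and 5.46% lower. The remaining Sox4 probe set had signals between 8.0 and 26.3 and was under the floor in every array. Probe sets of 1 gene read the same RNA and are not replicates.

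Foxq1 had the widest range of the members, 3.47 on the log2 scale. Its brighter probe set had a signal of 1468 in homozygous HHR, 133 in heterozygous HHR, 449 in SDR involution and 179 in SDR lactation. Homozygous HHR stood above the other 3 arrays, and involution lay between it and the remaining pair. The second probe set had 693 in homozygous HHR and 147 in involution, and lay under the floor in heterozygous HHR (4.3) and SDR lactation (54.8). Foxq1 was 11.1-fold higher in homozygous than in heterozygous HHR by the brighter probe set and at least 7.56-fold by the second. Against SDR lactation, homozygous HHR was 8.19-fold higher by the brighter and at least 7.56-fold higher by the second. In involution it was 2.51-fold higher than in SDR lactation by the brighter, and the second gave a lower bound of 1.60-fold. Heterozygous HHR was 1.35-fold lower than SDR lactation, within 2-fold.

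Foxq1 was thus at least 2-fold above every other array in homozygous HHR, as were 45 of 11389 genes (0.395%) above the floor in any array. Foxq1 and Sox4 were both among 85 genes (0.746%) in which homozygous HHR and SDR involution each lay at least 2-fold above heterozygous HHR and SDR lactation. These shapes were set after the values were seen. Of the further gene lists Cebpd, a C/EBP family factor known to rise at weaning, Klf4, a zinc finger factor of epithelia, and the keratin Krt7 had the same shape. Cebpd had 4992 in homozygous HHR, 816 in heterozygous HHR, 2854 in SDR involution and 559 in SDR lactation. Klf4 had 647, 279, 796 and 313 in these arrays in turn.

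The genes with patterns most like Foxq1 and Sox4 were found among 9427 other genes above the floor in all 4 arrays. Likeness was the root mean square difference of log2 signals after each gene was centred on its own mean, over 4 arrays. For Foxq1 the nearest were Jun, a subunit of AP-1, at 0.30, Rnd3 at 0.33, the zinc finger factor Klf6 at 0.46, the matricellular gene Ccn2 at 0.47 and the arrestin family member Arrdc4 at 0.47. Jun had 4106 in homozygous HHR, 593 in heterozygous HHR, 1564 in SDR involution and 852 in SDR lactation. Arrdc4 had 3983, 455, 830 and 808 in these arrays in turn, so unlike Foxq1 its involution and SDR lactation signals were nearly the same.

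For Sox4 the nearest genes lay closer. They were the kelch protein Klhl24 at 0.09, the ubiquitin ligase Rnf122 at 0.15, the Rab5 exchange factor Rin2 at 0.20, Pfkfb3, an enzyme that drives glycolysis, at 0.21 and Eps8l1 at 0.21. Klhl24 had 5077 in homozygous HHR, 1392 in heterozygous HHR, 5049 in SDR involution and 1302 in SDR lactation. With 4 arrays many genes can share a pattern, and the distances are a description.

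**Figure D3:**
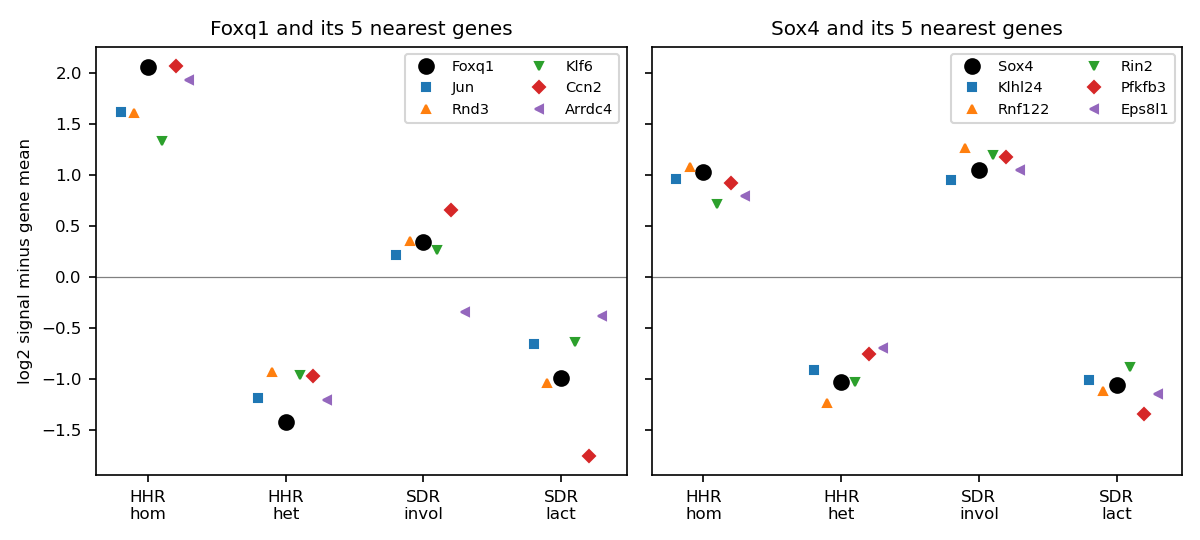
log2 signal of Foxq1 (left) and Sox4 (right) in the 4 arrays, each gene centred on its own mean, with the 5 genes of nearest pattern. Sox4 and its neighbours are high in HHR hom and SDR invol and low in HHR het and SDR lact, while Foxq1 and its neighbours stand highest in HHR hom.

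Id1 and Id3 were highest in SDR lactation and low in the other 3 arrays. Id1 had a signal of 812 in homozygous HHR, 672 in heterozygous HHR, 657 in SDR involution and 1847 in SDR lactation. It was 2.28-fold lower in homozygous HHR, 2.75-fold lower in heterozygous HHR and 2.81-fold lower in involution than in SDR lactation. Id3 had 756 in homozygous HHR, 777 in heterozygous HHR, 705 in SDR involution and 2349 in SDR lactation. It was 3.11-fold, 3.02-fold and 3.33-fold lower in these arrays in turn. The 3 lower arrays lay near each other, and homozygous and heterozygous HHR differed by 1.21-fold for Id1 and 1.03-fold for Id3. SDR lactation was at least 2-fold above every other array in 80 of 11389 genes (0.702%), among them these 2 members. This shape, too, was set after the values were seen. Of the further gene lists Ccl5, Cd36, Fabp4, Oxtr, Pparg and Sox18 had it as well. Id1 and Id3 each had 1 probe set, so no second probe set bears on them.

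Id2 had the same highest array but a smaller step in HHR. Its brighter probe set had 5352 in homozygous HHR, 5096 in heterozygous HHR, 3035 in SDR involution and 9268 in SDR lactation. The second had 447, 543, 427 and 875 in these arrays in turn. Involution was 3.05-fold lower than SDR lactation by the brighter probe set and 2.05-fold lower by the second. Homozygous HHR was 1.73-fold and 1.96-fold lower, and heterozygous HHR 1.82-fold and 1.61-fold lower, all within 2-fold. Between homozygous and heterozygous HHR the probe sets differed in sign, with log2 differences of 0.07 and -0.28.

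Id genes are also expressed in endothelium, and the summed signal of endothelial markers was also highest in SDR lactation. Of 14 listed, 13 had a probe set and all 13 were above the floor in at least 1 array. Their summed signal was 10621 in homozygous HHR, 9272 in heterozygous HHR, 9589 in SDR involution and 15698 in SDR lactation. The median log2 difference from SDR lactation was -0.55 in homozygous HHR, -0.68 in heterozygous HHR and -0.68 in involution, with 3, 2 and 3 of 13 markers at least 2-fold lower and 0, 0 and 1 higher. Over all genes 2.72%, 4.14% and 8.94% were lower in these comparisons. The markers did not all move one way. Sox18, an endothelial factor of the same HMG box family as Sox4, had 388, 411, 617 and 1465 in homozygous HHR, heterozygous HHR, SDR involution and SDR lactation. Kdr, a VEGF receptor, had 1701, 1956, 597 and 3286 in these arrays. Vwf, von Willebrand factor, had 327, 274, 688 and 292, and was 2.36-fold higher in involution than in SDR lactation. The adhesion molecule Pecam1, chosen after its values were seen, had 816, 632, 902 and 747, all within 2-fold. The part of endothelium in the Id values was not tested, and in bulk tissue fewer cells of a type and less RNA per cell cannot be told apart.

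Adipocyte markers summed to 30554 in homozygous HHR, 35488 in heterozygous HHR, 11070 in SDR involution and 67160 in SDR lactation, again the highest array, over 9 of 10 listed genes with a probe set. Cd36 and Fabp4, which endothelial cells express too, gave much of that sum, and the median log2 differences were 0.46, 0.10 and -1.03 against SDR lactation in homozygous HHR, heterozygous HHR and involution. T cell markers, 13 of 14 with a probe set, summed to 2916, 2809, 2250 and 4237 in homozygous HHR, heterozygous HHR, SDR involution and SDR lactation, with Cd8a under the floor in all 4. Their part in the Id values was not tested either.

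Genes of BMP signalling, which acts upstream of the Id genes, and E proteins with other bHLH factors were taken from 2 lists. BMP signalling, the best known inducer of Id transcription, was represented by 29 of 33 listed genes. Of these 0 of 23 measured passed 2-fold in homozygous HHR and 0 of 21 in heterozygous HHR against SDR lactation, with medians of 0.11 and 0.08. Folds against the floor are lower bounds here too. Smad6, chosen after its values were seen, was at least 1.98-fold lower in heterozygous HHR (a value under the floor against 182). Against heterozygous HHR, 0 of 23 passed in homozygous HHR (median 0.16). In involution 1 of 23 was higher and 1 lower, with a median of 0.12. Over all genes 6.49%, 8.72%, 6.89% and 19.2% passed 2-fold in these comparisons in turn. The 2 genes past 2-fold in involution were the receptor Acvr2b, at least 2.04-fold higher (187 against a value under the floor), and the decoy receptor Bambi, at least 2.01-fold lower (a value under the floor against 184). Smad4, the common partner of receptor-activated SMADs, had 2586 in homozygous HHR, 1609 in heterozygous HHR, 2274 in SDR involution and 1945 in SDR lactation. Bmp4, Bmp5, Smad9 and Grem1 were under the floor in every array. These values are transcript signals and not a measure of pathway activity. The part of BMP signalling in the Id values was not tested.

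E proteins and other bHLH factors had 13 of 14 listed genes with a probe set. In homozygous HHR against SDR lactation 0 of 11 reached 2-fold higher and 1 lower (median -0.24), and in heterozygous HHR likewise 0 and 1 (median -0.51). The lower genes were Bhlha15, a factor of secretory cells, at 2.28-fold in homozygous HHR, and the MYC antagonist Mxi1, at 2.20-fold in heterozygous HHR. The E protein Tcf4 had 2983 in homozygous HHR, 3265 in heterozygous HHR, 5092 in SDR involution and 2982 in SDR lactation. In homozygous against heterozygous HHR 2 of 11 reached 2-fold higher and 0 lower, the circadian repressors Bhlhe41 (2.95-fold) and Bhlhe40 (2.07-fold). Over all genes 3.76% were higher and 3.13% lower in this pair. The counts of 1 and 1 of 11 against SDR lactation stand beside 6.49% and 8.72% of all genes. In involution 1 of 11 was higher and 2 were lower, where 10.3% and 8.94% of all genes were. Bhlha15 was 10-fold lower there (147 against 1474), Srebf1, a regulator of lipid synthesis, was 5.33-fold lower, and Bhlhe41 was 5.81-fold higher.

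Gata3 was highest in homozygous HHR and lowest in involution. Its brighter probe set had 4914 in homozygous HHR, 3995 in heterozygous HHR, 1695 in SDR involution and 3191 in SDR lactation. The second had 1420, 1050, 485 and 911 in these arrays in turn, the same order. No Gata3 difference from SDR lactation reached 2-fold. Homozygous HHR was 1.54-fold and 1.56-fold higher by the 2 probe sets, heterozygous HHR 1.25-fold and 1.15-fold higher, and involution 1.88-fold lower by each. With median centring of the arrays the involution difference of the brighter probe set was -1.06 on the log2 scale, past 2-fold. Gata3 is also a T cell gene, and the summed T cell markers, given above for each array, were highest in SDR lactation and lowest in involution. Among them Thy1 had 1035 in homozygous HHR, 956 in heterozygous HHR, 477 in SDR involution and 1045 in SDR lactation, a large part of each sum. The sums used signals as deposited, and some of the other T cell markers were under the floor in most arrays. The part of T cells in the Gata3 values was not tested.

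Elf3 had 375 in homozygous HHR, 303 in heterozygous HHR, 435 in SDR involution and 396 in SDR lactation. Ehf had 481 in homozygous HHR, 312 in heterozygous HHR, 461 in SDR involution and 543 in SDR lactation. Heterozygous HHR was the lowest array for each, and the largest difference was that of Ehf in heterozygous HHR, 1.74-fold lower than SDR lactation. The range stayed within 2-fold over the 4 arrays in 7546 of 11389 genes (66.3%), as it did for these members. For Elf3 the log2 difference in involution was 0.14 as deposited and -0.01 after median centring.

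Relatives of the members within their gene families were compared next. Elf5, an ETS factor of the same subfamily as Elf3 and Ehf that drives alveolar differentiation, had 10893 in homozygous HHR, 11597 in heterozygous HHR, 3420 in SDR involution and 13668 in SDR lactation. It was 4-fold lower in involution than in SDR lactation and within 2-fold in HHR. Spdef, another ETS factor, was 4.17-fold higher in homozygous HHR (582 against 140) and 2.24-fold higher in heterozygous HHR (312 against 140) than in SDR lactation. Sox10, a factor of the SOX9 subfamily, was 3.07-fold lower in involution (1272 against 3899). Of the 27 relatives with a probe set 2 of 18 measured were higher and 2 lower in homozygous HHR, 2 of 19 higher and 2 lower in heterozygous HHR, and 1 of 17 higher and 4 lower in involution, each against SDR lactation. The medians were 0.13, 0.04 and -0.21. Over all genes 3.77% were higher and 2.72% lower in homozygous HHR, 4.58% and 4.14% in heterozygous HHR, and 10.3% and 8.94% in involution. In homozygous against heterozygous HHR 1 of 19 was higher and 1 lower, with a median of 0.11, where 3.76% and 3.13% of all genes were.

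Other mammary epithelial transcription factors had 30 of 35 listed genes with a probe set. In homozygous HHR 5 of 25 measured were at least 2-fold higher and 1 lower than in SDR lactation, with a median of 0.05, where 3.77% of all genes were higher and 2.72% lower. Cebpd was 8.94-fold higher, Klf5, a factor of proliferating epithelium, was 5.38-fold higher (1804 against 335), and Runx1, a luminal and basal lineage factor, was 2.36-fold higher (3242 against 1373). In heterozygous HHR 1 of 24 was higher and 0 lower, with a median of -0.04, where 4.58% and 4.14% of all genes were. Against heterozygous HHR, 3 of 24 reached 2-fold higher in homozygous HHR and 0 lower (median 0.09, with 3.76% and 3.13% of all genes), namely Cebpd at 6.12-fold, Klf5 at 3.06-fold and Klf4 at 2.32-fold. The count in involution was 4 of 24 higher and 3 lower, where 10.3% and 8.94% of all genes were, and the median -0.09. Runx1 was 4.01-fold higher there (5510 against 1373), the nuclear factor Nfib was 2.45-fold higher and Irx3 was 2.71-fold lower. Lmo4, a LIM-only cofactor, had 12159 in homozygous HHR, 13579 in heterozygous HHR, 7015 in SDR involution and 11747 in SDR lactation.

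Basal and mesenchymal transcription factors, 14 of 16 with a probe set, had 1 of 11 higher and 0 lower in homozygous HHR and 0 of 11 past 2-fold in heterozygous HHR, each against SDR lactation. Over all genes 3.77% were higher and 2.72% lower in homozygous HHR, and 4.58% and 4.14% in heterozygous HHR. In homozygous against heterozygous HHR 0 of 11 passed, where 3.76% of all genes were higher and 3.13% lower. In involution 2 of 12 were higher and 1 lower, where 10.3% and 8.94% of all genes were, and Zeb2, a repressor of epithelial genes, was 3.06-fold higher (535 against 175).

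Markers of the gland's cell types were set beside the members. The summed luminal signal, to which milk protein genes contribute most, was 266035 in homozygous HHR, 274329 in heterozygous HHR, 291656 in SDR involution and 275133 in SDR lactation. In involution 6 of 17 luminal markers were at least 2-fold higher than in SDR lactation and 2 lower, where 10.3% and 8.94% of all genes were. The keratin Krt8 was 4.37-fold higher and Krt19 4.84-fold higher, while the prolactin receptor Prlr was 2.91-fold lower. In homozygous HHR 1 of 16 was higher and 0 lower than in SDR lactation, where 3.77% and 2.72% of all genes were, namely Krt7 at least 3.94-fold. The summed myoepithelial signal was 55815 in homozygous HHR, 58290 in heterozygous HHR, 44871 in SDR involution and 33994 in SDR lactation, with medians of 0.72, 0.68 and 0.16 against SDR lactation. Fibroblast markers summed to 77614, 53831, 64302 and 81144, and macrophage markers to 14772, 10638, 18874 and 18973, in homozygous HHR, heterozygous HHR, SDR involution and SDR lactation. Median log2 differences from SDR lactation in homozygous HHR, heterozygous HHR and involution were -0.11, -0.77 and -0.25 for fibroblasts. For macrophages they were -0.14, -0.47 and 0.04. Heterozygous HHR had the lowest sum for both, and was the lowest array for Elf3, Ehf and Foxq1, a match seen after the values. These 3 members stayed within 2-fold of SDR lactation there, and the part of these cells in the member values was not tested.

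**Figure D4:**
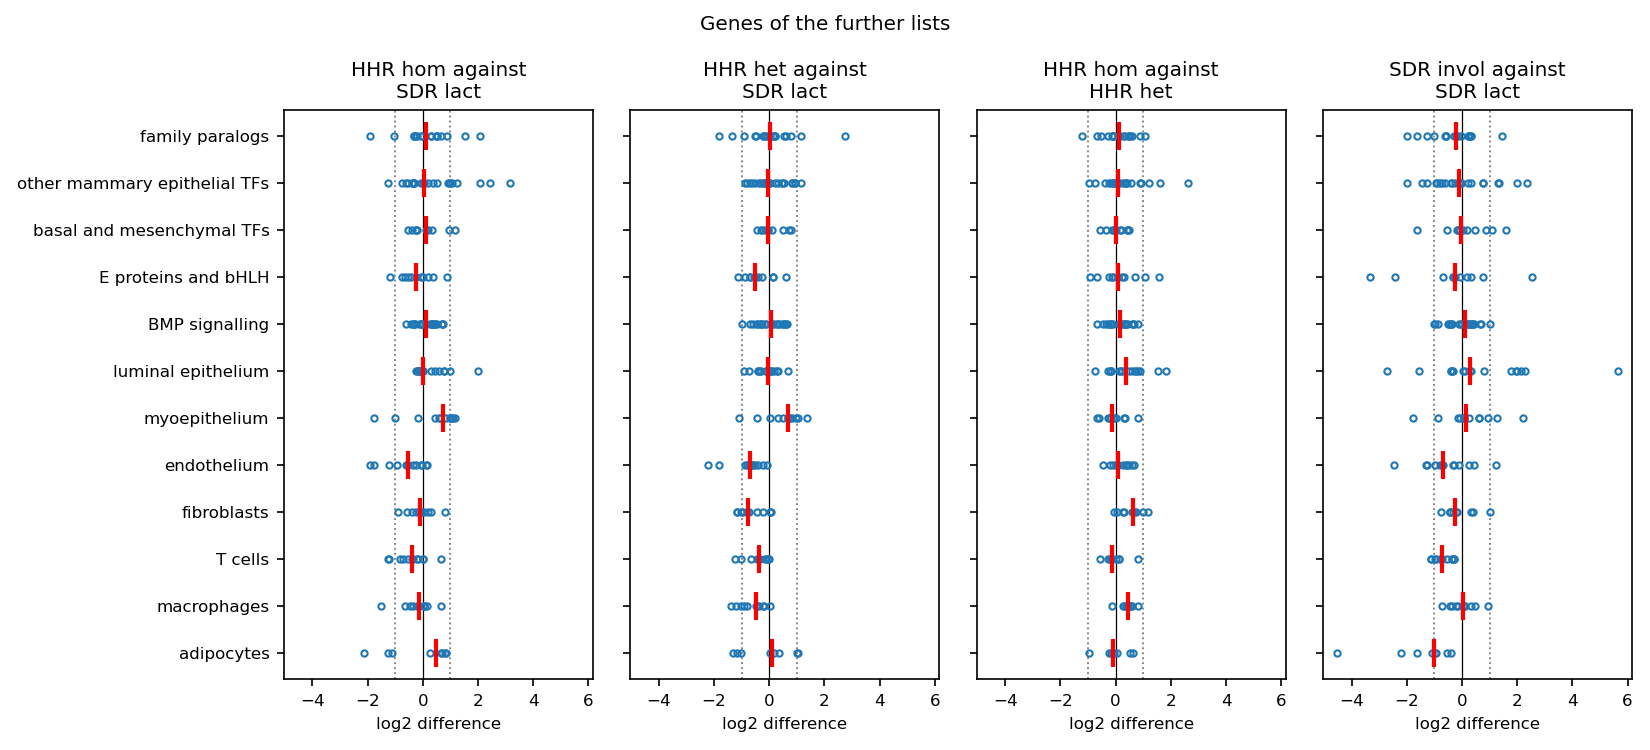
log2 differences of the measured genes of 5 further lists and 7 marker lists in each comparison, members left out. Circles are genes, red bars list medians and dotted lines 2-fold. Endothelial medians lie left of 0 in all 3 comparisons with SDR lact. No BMP signalling gene passes 2-fold in the comparisons of HHR, where folds against the floor are lower bounds.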

How the data were processed

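The authors summarised the probes of each probe set with MAS5 into 1 linear intensity value before the values were deposited, per the submitters' processing notes, which leave out its version. A mean trimmed by 2% at either end came to 500.2 for each of the 4 arrays, from which the authors' scaling was read. MAS5 settings and detection calls were not used here. Every column matched a sample by its name, and 0 had no match. The 31099 probe sets included 57 controls. The platform annotation, which can be old, gave 20826 of them 1 symbol, 436 several and 9780 none, and names come only from the first kind. Those named 14217 genes, and 11389 exceeded the floor somewhere.

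Values were floored at the 40th percentile, the brightest probe set by mean floored log2 signal stood for a gene, and genes over the floor in either array of a pair were counted at 2-fold (Python 3.11.15, pandas 2.3.3, numpy 2.4.6). The steps were tested on simulated data. The 10 members and the lists were chosen with earlier results of these data known. Named genes of a list were its brightest, at most 4 past 2-fold and 2 short of it in a comparison. Pecam1, Smad6 and genes named for a shared shape were chosen outside this rule. Values of such a gene in a further array or comparison were added where the text returns to it. Pattern likeness was computed for the 2 members of widest range, naming 5 genes each. Alternatives covered median centring, quantile normalization, floors at the 25th and 55th percentile, adding the floor as pseudocount and averaging a gene's probe sets. They also covered dropping probe sets with a letter suffix before _at, whatever the letter, and thresholds of 1.5-fold and 3-fold. Promoter coordinates are those of the RefSeq table.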

Additional observations from a re-analysis of the deposited data

How the results depend on the processing

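Of 215 recomputed log2 differences over 32 pairs of a member and a comparison, 213 kept their direction and side of 2-fold, or stayed within 2-fold. Many of them could not change, so this count is no measure of stability. The brightest probe sets of the measured members exceeded the floor in all 4 arrays, so the lower floor repeated their values. The higher floor could move Foxq1 only. Averaging could not move genes with 1 probe set, and dropping probe sets with a letter suffix could not move the genes it kept. In SDR involution against SDR lactation Foxq1 had 1.0, just short of 2-fold, with the floor added as a pseudocount, and Gata3 passed 2-fold at -1.06 with median centring. Within 2-fold the sign turned for Elf3 in involution with median centring (-0.01) and for Id2 between homozygous and heterozygous HHR with the mean of all probe sets (-0.10). Leaving out probe sets with a letter suffix removed Id1 and Id3, whose only probe sets end in _a_at, so neither was measured there. The members past 2-fold then numbered 2 in homozygous HHR, 0 in heterozygous HHR and 3 in involution, each against SDR lactation. In the main setting 4, 2 and 5 had passed. Without those probe sets 6.52%, 8.68% and 19.3% of all genes passed 2-fold in these comparisons in turn. At 3-fold the members past it numbered 1 in heterozygous HHR (Id3) and 3 in involution (Sox4, Id2 and Id3). Over all genes 1.97% and 6.77% passed 3-fold there. At 1.5-fold 4 members passed in heterozygous HHR (Ehf, Id1, Id2 and Id3), where 26.8% of all genes did. In homozygous against heterozygous HHR 2 members passed under every alternative except the 1.5-fold threshold, where 3 did. Of all genes in this pair 23.2% passed 1.5-fold and 1.2% passed 3-fold. Over all genes the share past 2-fold in homozygous HHR against SDR lactation was 4.23% with the pseudocount and 9.25% with the lower floor, where the main value was 6.49%. No paired analysis was possible because each group has 1 array. Signals near the floor, as for Foxa1 and the weakest Sox4 probe sets, limit what can be seen, and without replicates no difference can be set against the spread between animals.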
